A study of Mus musculus with 21 samples.

Results

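Transient joint Foxa1 and Foxa2 sites are genomic regions that held a peak of both proteins 48 hours after infection and a peak of no Foxa protein in the established cells. They were chosen by the presence and absence of peaks in the 6 deposited Foxa lists. The lists were pooled, and peaks that overlapped by at least 1 bp were merged into regions. A member has a peak in the 48-hour Foxa1 and the 48-hour Foxa2 list, and none in the 48-hour Foxa3 list or in any list of iHep cells. The rule found 1375 members among 29339 merged Foxa regions, which is 4.69% of them.

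The series mapped Foxa and Hnf4a binding by ChIP-seq, in which chromatin is precipitated with an antibody and the recovered DNA is sequenced. The starting cells were embryonic fibroblasts of C57BL/6 mice, taken at 13.5 days post coitum. All the lines used here were infected with retroviruses for Hnf4alpha together with 1 Foxa protein, which was Foxa1 in the line 4a1, Foxa2 in the line 4a2 and Foxa3 in the line 4a3. Each line was taken as established iHep (hepatocyte-like) cells and as fibroblasts 48 hours after infection, with 1 Foxa and 1 Hnf4a peak list at each stage. No uninfected cells are among the peak lists, and all groups received Hnf4alpha. The sources used here do not state the promoter of the viruses, the number of embryos or whether an iHep line grew from 1 clone.

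With 1 library in each group there is no replicate spread, and no p-values are given. Each Foxa protein was precipitated in its own line with its own antibody, so a difference between proteins, lines and antibodies cannot be told apart. The titles carry the code R222 for the 48-hour Foxa1 line and R209 for the 48-hour Foxa2 line, R225 for the iHep Foxa1 line and R215 for the iHep Foxa2 library. Read depth is unknown. A peak that is absent from a list shows that no peak was called there, not that the protein was absent, so transient refers to peak calls alone.

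Foxa proteins are forkhead transcription factors that bind DNA through a winged-helix domain and can engage sites within compacted chromatin, for which they are called pioneer factors. Foxa1 and Foxa2 have closely similar DNA-binding domains, and in the mouse embryo they act redundantly in the specification of the liver from the foregut endoderm. Hnf4a is a nuclear receptor that controls many hepatocyte genes and often occupies liver enhancers beside Foxa proteins.

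Many sites with early peaks of both Foxa1 and Foxa2 were members. Of the 3089 regions with 48-hour peaks of both proteins, 115 also held a Foxa3 peak at either stage. Among the remaining 2974, 1375 held no iHep Foxa peak, which is 46.2% (95% Wilson interval 44.4% to 48.0%). A further 670 (22.5%, 21.1% to 24.1%) were kept with iHep Foxa2 alone, 881 (29.6%, 28.0% to 31.3%) with iHep Foxa1 and iHep Foxa2, and 48 (1.61%, 1.22% to 2.13%) with iHep Foxa1 alone. These shares follow from the rule and are a description. The intervals cover counting error only, and neighbouring regions are not independent.

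The excluding lists differ in length. The iHep Foxa2 list of 10330 peaks held 1643 of the joint regions (53.2%), and the iHep Foxa1 list of 3435 peaks held 989 (32.0%). The iHep Foxa2 list was the sole reason to leave out 670 joint regions, the iHep Foxa1 list for 48, the 48-hour Foxa3 list for 19 and the iHep Foxa3 list for 1. With each Foxa list limited to its 3435 highest scoring peaks, 738 regions met the rule, which were 49.5% of joint regions without Foxa3. With the iHep Foxa2 list left out of the rule, 68.8% of joint regions without Foxa3 met it.

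Members took up 1380 of the 6781 peaks in the 48-hour Foxa1 list (20.4%) and 1377 of the 6827 peaks in the 48-hour Foxa2 list (20.2%). Nearly all were a simple pair of 1 Foxa1 and 1 Foxa2 peak. Only 5 members held 2 Foxa1 peaks and 2 held 2 Foxa2 peaks.

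The scores of members were moderate for Foxa1 and higher for Foxa2. The deposited score is the authors' value for each peak, the sources used here do not say how it was computed, and it was ranked within its own list only, with rank 1 for the highest score. As a percentage of the list, the median member rank was 49.0% in the 48-hour Foxa1 list (25th to 75th percentile 27.4% to 71.3%) and 34.4% in the 48-hour Foxa2 list (16.1% to 60.3%). Members thus spread almost evenly over the Foxa1 list and leaned towards the upper part of the Foxa2 list. In numbers, 296 members lay in the highest scoring 25% of Foxa1 peaks and 313 in the lowest, against 523 in the highest scoring 25% of Foxa2 peaks and 185 in the lowest. In 481 members (35.0%) the rank was better in the Foxa1 list than in the Foxa2 list.

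The regions that were kept differed from members in their Foxa1 rank far more than in their Foxa2 rank. In the 48-hour Foxa1 list the median rank was 49.0% for members, 37.5% for regions kept with iHep Foxa2 alone and 13.9% for regions kept with both proteins. In the 48-hour Foxa2 list the corresponding medians were 34.4%, 34.4% and 27.6%. The 48 regions kept with iHep Foxa1 alone had medians of 26.1% in the Foxa1 list and 29.1% in the Foxa2 list. Members and regions kept with iHep Foxa2 alone therefore had the same median rank in the Foxa2 list. The Foxa1 rank was better than the Foxa2 rank in 35.0% of members, in 48.5% of regions kept with iHep Foxa2 alone and in 68.9% of regions kept with both.

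**Figure D1:**
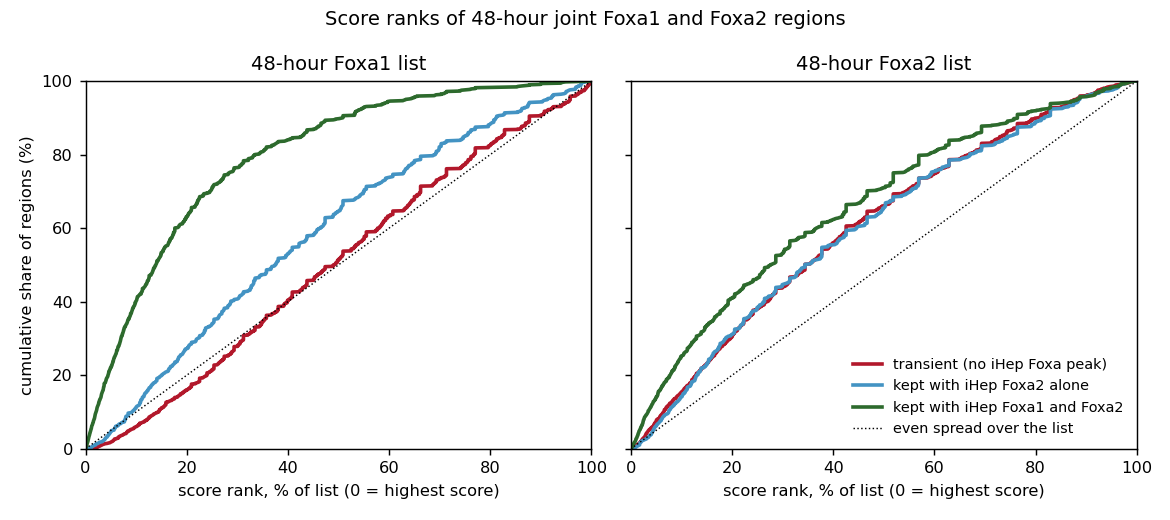
Cumulative share of 48-hour joint regions (vertical axis, %) by their score rank as a percentage of the 48-hour Foxa1 list (left) and Foxa2 list (right). In the Foxa1 list the 1375 transient regions follow the dotted line of an even spread while the 881 regions kept with both proteins gather at high scores (median rank 49.0% against 13.9%), and in the Foxa2 list the curves lie close together (34.4% against 27.6%).

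Seen from the lists, the share of joint regions that were transient was lower at each step of a higher Foxa1 score. It was 71.5% (313 of 438) in the lowest scoring 25% of Foxa1 peaks, 62.1% (354 of 570) in the next, 52.0% (412 of 792) in the next and 25.2% (296 of 1174) in the highest. Across the Foxa2 list the same share was 47.3% (185 of 391), 48.7% (282 of 579), 48.5% (385 of 794) and 43.2% (523 of 1210) from the lowest to the highest scoring 25%. Without regard to the Foxa1 score, the share of transient regions thus varied little with the Foxa2 score.

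The iHep Foxa2 list followed the 48-hour Foxa1 score too. It held 27.9% of joint regions in the lowest scoring 25% of 48-hour Foxa1 peaks (122 of 438) and 72.7% in the highest (854 of 1174). Across the 48-hour Foxa2 list it held 50.1% in the lowest scoring 25% (196 of 391) and 55.0% in the highest (666 of 1210). For iHep Foxa1 the shares were 5.71% and 55.4% across the 48-hour Foxa1 list, and 27.1% and 35.5% across the 48-hour Foxa2 list. Presence in either iHep list was thus ordered more by the 48-hour Foxa1 score than by the 48-hour Foxa2 score.

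Taking both scores at once gave the same order for the Foxa1 score. Among joint regions in the highest scoring 25% of both lists 172 of 654 (26.3%) were transient, and among those in the lowest scoring 25% of both 61 of 97 (62.9%). Regions with a Foxa1 score in the lowest and a Foxa2 score in the highest 25% were transient in 61 of 85 cases (71.8%, 61.4% to 80.2%). The opposite corner, with a high Foxa1 and a low Foxa2 score, gave 18 of 88 (20.5%, 13.3% to 30.0%). In the step of Foxa1 scores next to the lowest, the share was 56.2% (50 of 89, 45.8% to 66.0%) at the lowest and 70.1% (122 of 174, 62.9% to 76.4%) at the highest Foxa2 scores. In each of the other Foxa1 steps, too, the share was higher at the highest than at the lowest Foxa2 scores. It was 71.8% against 62.9% in the lowest Foxa1 step, 56.6% against 47.9% in the step next to the highest and 26.3% against 20.5% in the highest. Within every Foxa1 step the intervals of these shares overlapped. Across regions the Foxa1 and Foxa2 ranks of members were weakly related, with a Spearman's rho of 0.32 over 1375 regions, and those of regions kept with both proteins with 0.44 over 881. Regions are not independent replicates.

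**Figure D2:**
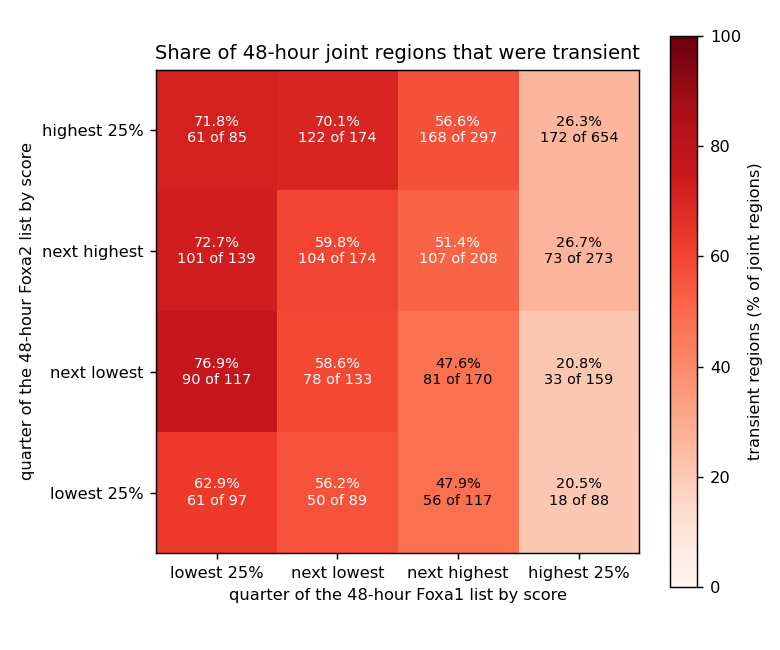
Share of 48-hour joint regions without Foxa3 that were transient (colour and %, with counts), by 25% steps of the 48-hour Foxa1 list (horizontal) and of the 48-hour Foxa2 list (vertical). The share lies between 62.9% and 76.9% at the lowest Foxa1 scores and between 20.5% and 26.7% at the highest, with smaller differences between Foxa2 steps.

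The strongest members stood below the strongest joint sites. Ordered by the sum of the Foxa1 and Foxa2 ranks, the best member was at place 50 of the 3089 joint regions. Of the 100 best joint regions 6 were members, and of the 100 worst 61 were, beside 44.5% of all 3089 joint regions.

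The best summed rank belonged to a region on chromosome 7 at 97796605 to 97797298 (mm9, first base counted as 1, as for all positions). Its Foxa1 peak had a score of 139.9 and rank 64, and its Foxa2 peak a score of 77.8 and rank 115. Its nearest iHep Foxa peaks lay 171678 bp away for Foxa3, 269457 bp away for Foxa2 and 269507 bp away for Foxa1. The next best member was on the same chromosome at 98073013 to 98073840, with rank 164 for Foxa1 (score 99.7) and rank 52 for Foxa2 (score 98.1). Both are wide regions, of 694 bp and 828 bp.

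Next in order came a region on chromosome 1 at 88548983 to 88549557, with rank 172 for Foxa1 and 77 for Foxa2. A region on chromosome 6 at 52367221 to 52368001 had ranks of 202 and 91 in the same order, and an iHep Foxa2 peak lay 20491 bp from it. The last of the 5 best lay on chromosome 2 at 81125903 to 81126705, with scores of 87.0 for Foxa1 and 86.9 for Foxa2 and an iHep Foxa1 peak 14410 bp away. In 4 of these 5 members the Foxa2 peak had the better rank, and none of the 5 overlapped an Hnf4a peak.

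At the other end, the worst summed rank belonged to a member on chromosome 16 at 33832887 to 33833308, with scores of 7.86 for Foxa1 and 9.12 for Foxa2. An iHep Foxa3 peak lay 2120 bp from it. The next worst was found on chromosome 3 at 49553653 to 49554003, scoring 9.92 for Foxa1 and 8.39 for Foxa2. Before it came a member of chromosome 4 that spans 11514453 to 11514913, with 8.83 for Foxa1 and 9.61 for Foxa2. The peaks of these 3 members were 310 to 461 bp wide. The narrowest peaks of the lists are 326 bp for Foxa1 and 310 bp for Foxa2, and the chromosome 3 member consists of a peak at each of these minimum widths.

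Members had slightly wider Foxa2 than Foxa1 peaks. The median width of a member's peak was 443 bp for Foxa1 (377 to 526 bp between the 25th and 75th percentile) and 468 bp for Foxa2 (387 to 562 bp), beside list medians of 436 bp and 424 bp. The Foxa1 peak was the wider of the pair in 43.5% of members, in 51.3% of regions kept with iHep Foxa2 alone and in 70.7% of regions kept with both proteins. Within each set, peaks of a higher score step had a larger median width. At matched score the sets were close. In the highest scoring 25% of Foxa1 peaks the median Foxa1 width was 556 bp in members, 552 bp in regions kept with iHep Foxa2 alone and 579 bp in regions kept with both. In the lowest scoring 25% the medians were 362 bp, 364 bp and 381 bp, with only 22 regions in the last group.

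**Figure D3:**
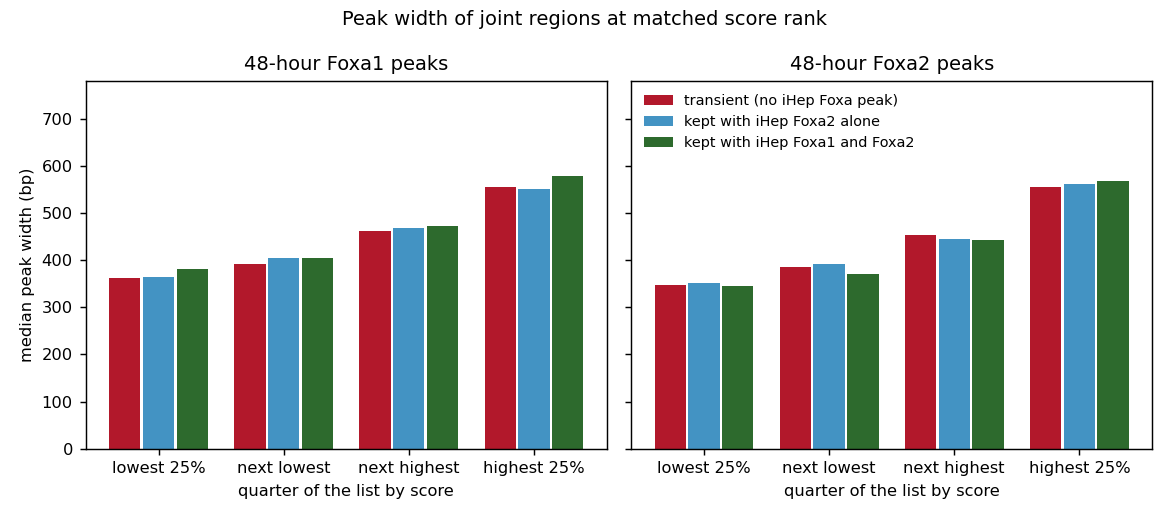
Median width in bp of the 48-hour Foxa1 peaks (left) and Foxa2 peaks (right) of joint regions, by 25% steps of the list from low to high score. The 3 sets of regions lie close together within a step, while transient regions have a median Foxa1 width of 362 bp at the lowest and 556 bp at the highest scores, and a median Foxa2 width of 347 bp and 556 bp.

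Within a member the peaks of both proteins were centred on nearly the same position. Their centres were a median of 41 bp apart (19.3 to 75 bp), and in 85.3% of members they lay within 100 bp. In 1345 members (97.8%) they lay within 200 bp. The median distance was 38.5 bp in regions kept with iHep Foxa2 alone and 31.5 bp in regions kept with both. In the 48 regions kept with iHep Foxa1 alone it was 29.8 bp. The median distance was thus somewhat larger in members than in each of the 3 kept sets. Within 200 bp, however, lay 97.2% of regions kept with iHep Foxa2 alone, slightly fewer than of members. Merging by overlap limits these distances, and they were not compared at matched score.

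Members were found on all 19 autosomes and on chromosome X, in numbers from 16 on chromosome X to 119 on chromosome 3. The share of joint regions that were transient was lowest on chromosome 7, at 37.0% (28.2% to 46.8%, 37 of 100), and highest on chromosome 16, at 55.5% (46.5% to 64.1%, 66 of 119). The interval of chromosome 7 holds the overall 46.2%, and that of chromosome 16 begins just above it, among 20 chromosomes compared. In the 3 dense blocks of 48-hour Hnf4a peaks, each of the 3 lists has a chain of closely spaced peaks. These blocks held 0 members and had 0 within 10 kb. With regions in or near the blocks left out, the share of members among joint regions without Foxa3 stayed at 46.2%. The kept joint regions without Foxa3 were thus absent there too, and the absence is not particular to members.

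Most members had no other member within 100 kb. The median distance from a member to the nearest other member was 314309 bp, and 342 members (24.9%) had another within 100 kb. Of the smaller kept sets, 21.9% of regions kept with both proteins and 10.4% of those kept with iHep Foxa2 alone had another of their own set that near. Any other 48-hour joint region lay within 100 kb of 558 members (40.6%). With gaps of up to 100 kb allowed, 1033 members formed no run, 118 runs held 2, 26 held 3, 4 held 4, 1 held 5 and 1 held 7.

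The longest run lay on chromosome 16 between 72149901 and 72435744 and held 7 members in 286 kb. All 7 joint regions in that span were members, and 0 of its 12 Foxa regions held an iHep Foxa peak. Its strongest member, at 72149901 to 72150526, had rank 316 for Foxa2 (score 55.2) and rank 1529 for Foxa1 (score 31.1). The other 6 members ranked between 1078 and 4838 for Foxa1 and between 1590 and 4914 for Foxa2. The nearest iHep peaks to any of the 7 were 227658 bp away for Foxa3, 538102 bp away for Foxa2 and 3973988 bp away for Foxa1.

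Joint regions near a member were often members themselves. Counting joint regions without Foxa3, for members with another within 10 kb the nearest one was a member in 69 of 113 cases (61.1%, 51.8% to 69.5%), while regions kept with iHep Foxa2 alone had a member beside them in 25 of 56 cases (44.6%, 32.4% to 57.6%) and regions kept with both proteins in 18 of 80 (22.5%, 14.7% to 32.8%). Within 100 kb the shares were 55.4% (302 of 545), 47.3% (123 of 260) and 30.7% (110 of 358) in the same order. The share of transient regions among all joint regions without Foxa3, 46.2%, lies between the values for members and for regions kept with both. Pairs that are each other's neighbour count once from each side, so these cases are not independent.

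Members lay farther from iHep Foxa peaks at other sites than the regions kept with iHep Foxa2 did, with or without iHep Foxa1. The median gap to the nearest other region with an iHep Foxa1 or Foxa2 peak was 84600 bp for members, 36123 bp for regions kept with iHep Foxa2 alone and 27891 bp for regions kept with both. Such a region lay within 10 kb of 12.4% of members (170), of 22.5% of regions kept with iHep Foxa2 alone (151) and of 30.0% of regions kept with both (264). The 48 regions kept with iHep Foxa1 alone were about as far away as members, with a median of 86061 bp and 8.33% within 10 kb (4 regions). Regions of a single protein at 48 hours lay at similar distances, with medians of 84078 bp for the 1619 regions of 48-hour Foxa1 alone and 74614 bp for the 3146 of 48-hour Foxa2 alone. The rule uses the iHep lists, so these distances are a description.

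**Figure D4:**
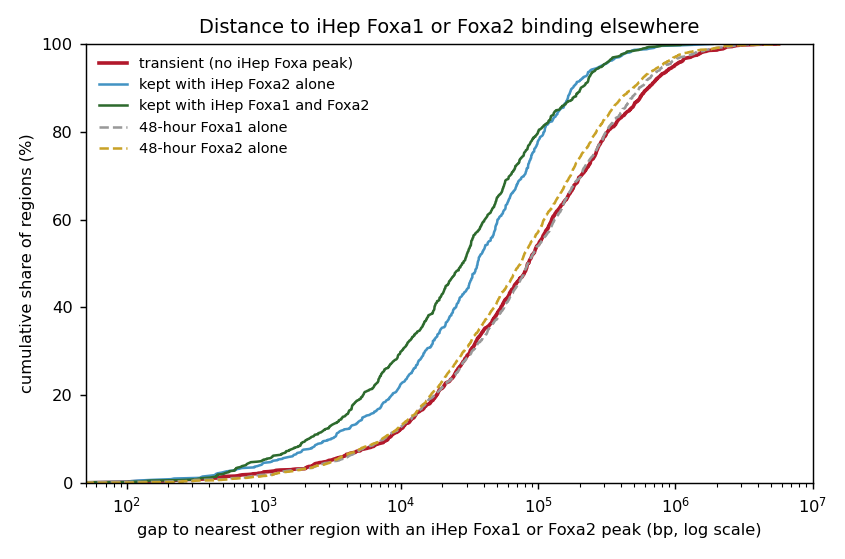
Cumulative share of regions (vertical axis, %) by the gap in bp to the nearest other region with an iHep Foxa1 or Foxa2 peak (log scale). Solid lines are 48-hour joint regions and dashed lines regions of 1 protein at 48 hours. The transient regions lie to the right of both kept sets, with a median of 84600 bp against 36123 bp and 27891 bp, and along the dashed lines.

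Few members missed an iHep peak narrowly. An iHep Foxa peak lay within 500 bp of 18 members (1.31%) and within 1 kb of 34 (2.47%). The closest was an iHep Foxa2 peak 52 bp from the member on chromosome 12 at 47846326 to 47846987, which ranked 4491 for Foxa1 and 4868 for Foxa2. On the other side of the rule, the 1599 excluded joint regions without Foxa3 were examined. The smallest overlap that left 1 of them out was 124 bp, with iHep Foxa2, on chromosome 13 at 5803120 to 5803679. That region ranked 6639 for Foxa1 and 5578 for Foxa2.

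The Hnf4a lists were not used to choose members. Hnf4a peaks were rare at members. In iHep cells 18 of the 1375 members (1.31%, 0.830% to 2.06%) overlapped an Hnf4a peak of any of the 3 lines, beside 6.12% of all merged Foxa regions. At 48 hours 6 members did (0.436%, 0.200% to 0.949%), beside 0.494% of all merged Foxa regions. The share at members was thus below that of all Foxa regions for iHep Hnf4a, and the interval for 48-hour Hnf4a held that of all Foxa regions. However, 21809 of all Foxa regions hold an iHep Foxa peak, and 7.72% of these overlapped an iHep Hnf4a peak. The rule bars such regions from members, so members and all Foxa regions differ by the rule itself.

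Joint regions kept with iHep Foxa2 held iHep Hnf4a peaks more often. The share was 1.31% in members, 4.18% (2.91% to 5.97%, 28 of 670) in regions kept with iHep Foxa2 alone and 10.1% (8.28% to 12.3%, 89 of 881) in regions kept with both proteins, and the 3 intervals do not overlap. Of the 48 regions kept with iHep Foxa1 alone 0 held one. A limit of 3 counts allows a share of up to 6.25% (Wilson upper bound 7.41%), so these regions cannot be placed above or below members. Kept regions are wider in part by the addition of iHep peaks. Their 48-hour Foxa1 peaks were wider too, with medians of 476 bp with iHep Foxa2 alone and 551 bp with both, against 443 bp in members. With the overlap restricted to the extent of the 48-hour Foxa1 and Foxa2 peaks the shares were 1.31%, 4.03% and 10.1%. The regions of 48-hour Foxa1 alone gave 1.24% (20 of 1619) and those of 48-hour Foxa2 alone 1.14% (36 of 3146). These 3 sets, which hold neither an iHep Foxa peak nor a 48-hour Foxa3 peak, thus had shares between 1.14% and 1.31%. Regions with a 48-hour Foxa3 peak and no iHep Foxa peak are not among them. The iHep Foxa and Hnf4a libraries of the Foxa1 line come from cells with the same title code, and those of the Foxa2 line do not.

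The iHep Hnf4a share of members was low in each line. In the Foxa1 line it was 0.727% in members (0.396% to 1.33%, 10 regions), 5.56% in regions kept with both proteins and 2.02% in all Foxa regions. In the Foxa2 line it was 0.873% in members (0.500% to 1.52%, 12 regions), 8.29% in regions kept with both and 2.76% in all Foxa regions. In the Foxa3 line it was 0.291% in members (0.113% to 0.746%, 4 regions), 3.18% in regions kept with both and 3.80% in all Foxa regions. The upper bound for members stayed under the share of all Foxa regions in each of the 3 lines. Most of those regions hold an iHep Foxa peak, which the rule bars from members. The regions of 48-hour Foxa1 alone, which hold none, gave 0.741%, 0.988% and 0.371% in the Foxa1, Foxa2 and Foxa3 lines. For 48-hour Foxa2 alone the shares were 0.572%, 0.731% and 0.413%. Each of these lies within the interval of members in the same line.

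At 48 hours the counts were too small to separate the sets. The Hnf4a list of the Foxa1 line lay at 5 members (0.364%, 0.155% to 0.848%), at 0.795% of regions kept with both proteins and at 0.310% of all Foxa regions. That of the Foxa2 line lay at 3 members (0.218%, 0.0742% to 0.640%), at 0.681% of regions kept with both and at 0.266% of all Foxa regions. That of the Foxa3 line lay at 2 members (0.145%, 0.0399% to 0.529%), at 0.454% of regions kept with both and at 0.160% of all Foxa regions. These intervals hold the share of all Foxa regions in each line, but that depends on the exclusion by 48-hour Foxa3. With the 19 regions that only this list left out added, the Hnf4a list of the Foxa1 line lay at 0.861% (lower bound 0.493%), that of the Foxa2 line at 0.717% (0.390%) and that of the Foxa3 line at 0.646% (0.340%), with each lower bound above the share of all Foxa regions. The 48-hour Hnf4a lists hold 370 to 453 peaks and the iHep lists 1580 to 2506.

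**Figure D5:**
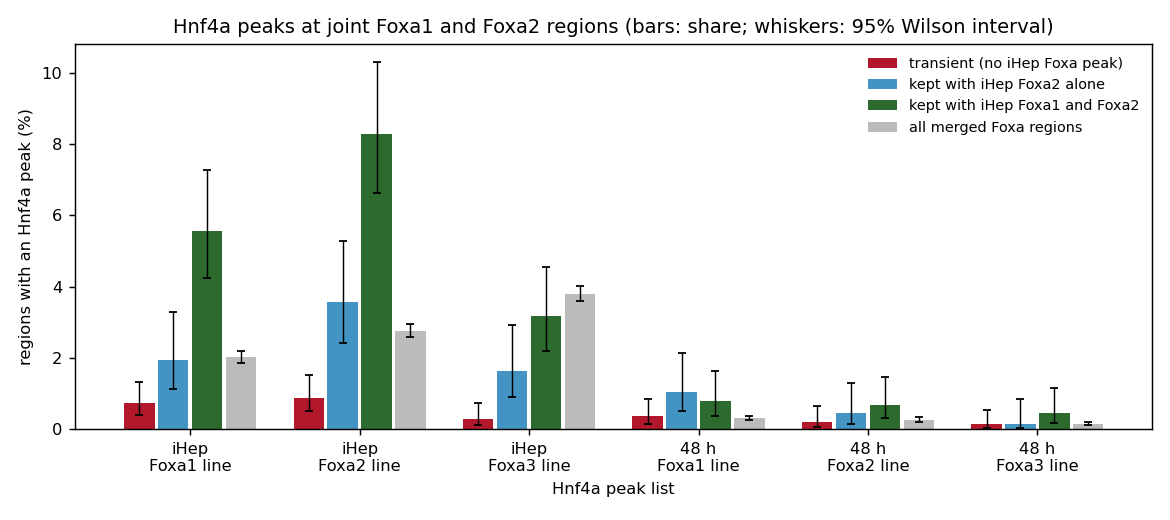
Share of regions with an Hnf4a peak (%, overlap of at least 1 bp) in each Hnf4a list, for transient regions, the kept joint regions and all merged Foxa regions, with 95% Wilson intervals as whiskers. In the iHep lists the transient regions stay at 0.873% or less while regions kept with both proteins reach 8.29%, and in the 48-hour lists all shares are at most 1.04%.

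The iHep Hnf4a share was also compared at matched score. In the highest scoring 25% of 48-hour Foxa1 peaks 2 of 296 members (0.676%, 0.185% to 2.43%) overlapped an iHep Hnf4a peak, against 9 of 228 regions kept with iHep Foxa2 alone (3.95%, 2.09% to 7.33%) and 65 of 626 regions kept with both (10.4%, 8.23% to 13.0%). In the lowest scoring 25% it was 7 of 313 members (2.24%, 1.09% to 4.54%), against 9 of 100 regions kept with iHep Foxa2 alone (4.81% to 16.2%) and 2 of 22 kept with both (9.09%, 2.53% to 27.8%). At either end of the Foxa1 score the share was lowest in members, but the interval of members overlapped that of regions kept with iHep Foxa2 alone at the high end and that of regions kept with both at the low end. By the Foxa2 score the highest scoring 25% gave 3 of 523 members (0.574%, 0.195% to 1.67%), 13 of 257 regions kept with iHep Foxa2 alone (5.06%, 2.98% to 8.46%) and 45 of 409 kept with both (11.0%, 8.33% to 14.4%). In the lowest scoring 25% the intervals of all 3 sets overlapped, with 4 of 185 members (0.844% to 5.43%), 3 of 100 regions kept with iHep Foxa2 alone (1.03% to 8.45%) and 7 of 96 kept with both (7.29%, 3.58% to 14.3%).

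In all, 21 members overlapped an Hnf4a peak of either stage and 1354 overlapped none. The 21 had weaker Foxa peaks, with a median rank of 54.7% in the Foxa1 list and 54.9% in the Foxa2 list, against 48.9% and 34.4% in the members without Hnf4a. A single Hnf4a list was involved at 14 of the 21, 2 lists at 3, 3 lists at 1, 4 lists at 2 and 5 lists at 1. Where an iHep Hnf4a peak overlapped a member, its centre was a median of 65 bp from the middle of the Foxa1 and Foxa2 centres (range 2.5 to 401 bp, 27 peaks). From the Hnf4a side members were a small fraction, with 0.633%, 0.483% and 0.200% of the iHep Hnf4a peaks of the Foxa1, Foxa2 and Foxa3 lines lying at a member. Of the 48-hour Hnf4a peaks it was 1.44% (6 of 418), 1.10% (5 of 453) and 0.811% (3 of 370) in the same order.

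The member with the most Hnf4a lists lay on chromosome 13 at 104813357 to 104813744. It overlapped iHep Hnf4a peaks of the Foxa1 line (score 13.6, rank 474) and of the Foxa2 line (score 18.5, rank 596), and 48-hour Hnf4a peaks of all 3 lines. Its own peaks ranked 3436 for Foxa1 and 5531 for Foxa2, and the nearest iHep Foxa peak lay 8548 bp away. A member on chromosome 17 at 13745212 to 13745802 also carried 48-hour Hnf4a peaks of all 3 lines, with an iHep Hnf4a peak of the Foxa2 line (score 17.9, rank 645).

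A member on chromosome 14 at 60378758 to 60379389 stood out by its iHep Hnf4a scores. The best Hnf4a peak there ranked 13 of 1580 in the iHep Foxa1 line (score 34.7), 28 of 2485 in the iHep Foxa2 line (score 53.7) and 23 of 2506 in the iHep Foxa3 line (score 25.3). At 48 hours the Foxa1 line had an Hnf4a peak at this region with a score of 6.25, which ranked 381 of 418. Its 48-hour Foxa peaks were modest, at rank 3615 for Foxa1 and 5578 for Foxa2, and the nearest iHep Foxa peak was 46040 bp away. This site thus held Hnf4a peaks in all 3 iHep lines and a Foxa peak in none of them.

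On chromosome 7 at 71337434 to 71337859 a member overlapped iHep Hnf4a peaks of all 3 lines as well, at rank 340 for the Foxa2 line, 634 for the Foxa1 line and 1116 for the Foxa3 line, and no 48-hour Hnf4a peak. Of the 3 members with 2 Hnf4a lists the one with the best summed rank, on chromosome 3 at 63258718 to 63259173, overlapped iHep Hnf4a peaks of the Foxa1 line (rank 185) and the Foxa2 line (rank 1514). Its Foxa peaks had rank 1369 for Foxa1 and 2696 for Foxa2.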

How the data were processed

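Peak lists of 13 of the 21 samples were read, and the 8 inputs were not analysed here. Each list gives a peak's position, name and a score that the authors deposited with no stated computation. Listed in the submitters' processing notes are the build mm9 and the tools MACS2 2.1.0, BWA 0.6.2 and bedtools 2.16.2, with no role for each. The sources used here do not say whether inputs entered peak calling. The list of the del2 mutant of Foxa3 was not used.

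Samples were grouped by their titles. Peaks of the 6 Foxa lists were merged at 1 bp or more of overlap, with the best ranked peak standing for a list. Shares carry 95% Wilson intervals. These intervals reflect counts of regions alone. They do not cover differences between libraries or in read depth, which is unknown. The members, the lists compared and the settings were chosen with earlier results of these data known. Regions were named by rule: the 5 members with the best and the 3 with the worst summed rank, the 5 with the most Hnf4a lists (ties by summed rank), the longest run, and those nearest the rule's edge. Genes, motifs and sequences were not analysed here, since the annotation in hand is of build GRCm38. Merging was tested on simulated data. The code ran in Python 3.11.15 with matplotlib 3.10.9, SciPy 1.17.1, pandas 2.3.3 and NumPy 2.4.6.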

Additional observations from a re-analysis of the deposited data

How the results depend on the processing

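Over 14 alternative settings, 132 of 161 values stayed within 1.5 times the reported count or within the 95% interval of the reported share or median. Linking peaks by at least 50% of the shorter, by centres within 200 bp or across gaps of up to 500 bp, autosomes alone and a margin of 1 kb to iHep peaks moved none of them beyond that. Leaving out the dense blocks is not counted, since no member lies in or near one. With the upper 50% of each Foxa list, members numbered 701. Their median rank, as a percentage of the full list, was 25.4% for Foxa1 and 16.9% for Foxa2. Widths were 515 bp and 527 bp, and the distance to the nearest other member was 681287 bp. The iHep Hnf4a share of the Foxa2 line was then 0.285%, and the 48-hour shares of the Foxa2 and Foxa3 lines were 0% (0 of 701, which allows up to 0.428%). With all Foxa lists at the length of the shortest, 3435 peaks, there were 738 members, which were 49.5% of joint regions without Foxa3. Their median ranks were 25.7% and 17.4% of the full lists, with widths of 513 bp and 526 bp and a distance of 649137 bp. Both of those 48-hour shares were again 0% (0 of 738, up to 0.407%). Ranks, widths and distances move in these settings because low scoring peaks are removed. The ranks remain percentages of the full lists, so they do not show that members stood higher within the shortened lists. Without exclusion by iHep Foxa2, 2045 regions met the rule, against the reported 1375, which is just within the 1.5 times allowed. They include the 670 regions kept with iHep Foxa2 alone and were 68.8% of joint regions without Foxa3. Their Foxa1 rank was 45.1%, the Foxa1 width 455 bp, the distance 225282 bp and the iHep Hnf4a share of the Foxa2 line 1.76%. Without exclusion by 48-hour Foxa3, the 48-hour Hnf4a shares of the Foxa1, Foxa2 and Foxa3 lines were 0.861%, 0.717% and 0.646%, from 19 added regions. With the upper 50% of each Hnf4a list, the iHep share of the Foxa1 line was 0.364%, and the 48-hour shares of the Foxa1 and Foxa3 lines were 0.145% and 0% (0 of 1375, up to 0.218%). No paired analysis was possible because each group holds 1 library and no result comes from a test. Leaving out replicates was not possible for the same reason.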
